A study of Mus musculus with 16 samples.

Results

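The genes described here encode the lysosomal proton pump and the complexes that sense nutrients at the lysosomal surface, and they were compared across 4 mouse mononuclear phagocyte populations. Gene entries of the deposited count table were matched by name as V1 and V0 subunits of the vacuolar-type ATPase, its accessory proteins, the LAMP glycoproteins, the mucolipin channels, the Ragulator subunits and the Rag GTPases. Of 45664 gene entries, 41 matched and 34 had a summed count of at least 100 over the 16 libraries. The set was chosen after Atp6v1h had been seen to stand far higher in the cornea, so the cornea comparisons were used in the choice and are given as a description, without a test. At that minimum, Mcoln3 was just inside with 157 summed counts and Atp6v1c2 just outside with 90. The other entries left out were Atp6v0a4 and Atp6v1b1 with 4 counts each, Atp6v1g3 with 2, Lamp5 with 1, and Atp6ap1l and Atp6v1e2 with 0. All 34 kept genes also passed the filter on low counts that preceded the tests.

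Each population had 4 libraries of bulk RNA from C57BL/6 mice of 8 to 10 weeks, with no treatment and no engineered allele named for them. The cornea sort, after digestion with collagenase D, gated macrophages on CD45+, CD11b+, CD64+ and F4/80+. The gate for microglia was CD45+ and CD11b+, in retina after mechanical dissociation in the cold and likewise in brain. Monocytes came from bone marrow with the gate CD45+, CD11b+, CD115+ and Ly6C+. Each cornea and retina sample pooled 10 mice. Of the 16 libraries, the 8 from brain and marrow carry a free-text description that names retinal microglia, against their own titles and source fields, and their groups were taken from the titles. Nothing settles that the libraries of a population came from separate animals, so p-values measure the spread between these samples, which may be partly technical.

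The vacuolar-type ATPase is a rotary pump. Its V1 sector on the cytosolic side hydrolyses ATP and its V0 sector in the membrane carries protons into the lysosome, where low pH activates hydrolases and drives transport. On the same membrane, Ragulator anchors the Rag GTPases, heterodimers of RagA or RagB with RagC or RagD, which bring the growth kinase mTORC1 to the lysosome when amino acids are plentiful. LAMP proteins line the inside of the membrane and mucolipins release cations, calcium among them, from the lumen. Factors of the MiT/TFE family, such as TFEB, are known to activate many lysosomal genes through an E-box with the core CACGTG. In macrophages and microglia, lysosomes degrade what the cells engulf.

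The promoters of 4 genes are printed to show where that core lies, with CACGTG in capitals and each running from 250 bases upstream of the RefSeq start to 50 bases downstream. That start equals the start of the GENCODE gene positions used elsewhere for Atp6v1d and Lamtor4, but lies 446 bases inside the GENCODE gene for Atp6v1a and 341 bases inside it for Mcoln2. They were chosen from the 27 members with an entry in the RefSeq promoter table (build GRCm38.p6). Atp6v1a and Mcoln2 stood far higher in the cornea, Atp6v1d was also higher there, and Lamtor4 was lower there.
Atp6v1a, chr16:44139210-44139509, minus strand: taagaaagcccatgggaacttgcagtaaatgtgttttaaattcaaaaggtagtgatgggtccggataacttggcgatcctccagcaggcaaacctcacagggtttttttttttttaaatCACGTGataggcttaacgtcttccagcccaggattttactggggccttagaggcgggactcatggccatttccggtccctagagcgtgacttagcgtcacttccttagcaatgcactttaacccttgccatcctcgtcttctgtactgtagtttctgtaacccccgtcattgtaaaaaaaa
Atp6v1d, chr12:78861589-78861888, minus strand: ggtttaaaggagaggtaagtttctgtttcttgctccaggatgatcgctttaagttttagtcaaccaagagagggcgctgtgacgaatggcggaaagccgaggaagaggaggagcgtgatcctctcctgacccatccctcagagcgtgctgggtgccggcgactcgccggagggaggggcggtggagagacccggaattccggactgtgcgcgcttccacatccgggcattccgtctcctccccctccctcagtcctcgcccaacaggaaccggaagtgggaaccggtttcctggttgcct
Lamtor4, chr5:138255232-138255531, plus strand: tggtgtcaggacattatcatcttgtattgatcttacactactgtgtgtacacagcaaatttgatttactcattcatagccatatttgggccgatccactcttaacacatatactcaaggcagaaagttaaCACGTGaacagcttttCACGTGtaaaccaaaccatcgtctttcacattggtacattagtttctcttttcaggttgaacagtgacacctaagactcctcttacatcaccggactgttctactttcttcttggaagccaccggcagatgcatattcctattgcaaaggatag
Mcoln2, chr3:146149924-146150223, plus strand: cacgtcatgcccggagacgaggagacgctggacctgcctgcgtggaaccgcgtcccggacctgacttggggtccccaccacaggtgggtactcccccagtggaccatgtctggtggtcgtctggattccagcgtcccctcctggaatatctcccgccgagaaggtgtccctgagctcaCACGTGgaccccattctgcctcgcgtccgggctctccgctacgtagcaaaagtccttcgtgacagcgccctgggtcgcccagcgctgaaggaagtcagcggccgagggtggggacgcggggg
The core was present once in the Atp6v1a promoter, inside the longer run TCACGTGA, and once in the Mcoln2 promoter. It was present 2 times in the Lamtor4 promoter and was not found in the Atp6v1d window. CACGTG, which reads the same on both strands, was found in 11 of the 27 members (40.7%), against 2187 of all 27025 genes with a promoter (8.09%). The longer TCACGTGA, each of which contains a CACGTG, was found in 4 of the 27 members (14.8%), against 304 of 27025 genes (1.12%). The members with the core were Atp6v0b, Atp6v0d1, Atp6v0e, Atp6v1a, Lamp1, Lamtor1, Lamtor4, Mcoln1, Mcoln2, Rragb and Rragc. All of these but Lamtor1 and Lamtor4 were at least 2-fold higher in the cornea than in each of the other 3 populations, without overlap. Of the searched members without the core, Atp6ap2, Atp6v0c, Atp6v1d, Atp6v1e1, Atp6v1f and Rragd were so too. The relation of the core to the cornea level was not tested. Atp6v1h, Lamtor3, Atp6v0d2, Atp6v1g1, Atp6v0a2, Atp6v1b2 and Atp6v1c1 had no promoter entry and were not searched, so nothing is known here of the core in them. A match describes letters in the window and is not a measured binding site.

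Libraries held 8.677 M to 21.76 M counts. Levels are in CPM, counts scaled to a common library total, after TMM scaling, whose factors were 0.6608 to 0.7052 in the cornea and 1.068 to 1.25 elsewhere, and means are given ± SD over 4 libraries. Summed microglial markers ran 1667 to 1906 CPM in cornea macrophages, 20795 to 27261 in retinal microglia, 34686 to 38518 in brain microglia and 211 to 287 in monocytes. Among them Fcrls alone was higher in the cornea than in retina, at means of 1069.6 and 591 CPM, with 3453 in brain. Classical monocyte markers reached 12521 to 16254 CPM in monocytes, against 1078 at most elsewhere, and tissue macrophage markers 2062 to 2276 CPM in the cornea, against 31.9 at most elsewhere. The 1078 CPM was in a cornea library, and F13a1 made up most of the monocyte markers there, at a cornea mean of 771 CPM. Transcripts of other cells were also counted: keratocyte markers at 1387 to 2583 CPM in cornea libraries, photoreceptor markers at 775 to 7264 CPM in retinal libraries, and granulocyte markers at 637 to 3645 CPM in monocyte libraries. Corneal epithelium markers ran 230 to 1307 CPM in cornea libraries, highest in replicate 1, and erythroid markers 296 to 2001 CPM in monocyte libraries, highest in replicates 1 and 2, which also held most granulocyte transcripts. In bulk RNA, fewer cells of a type and less RNA per cell cannot be told apart.

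Cornea macrophages had more transcripts of most pump subunits than the other 3 populations, of the mucolipin Mcoln2, and of selected Ragulator and Rag subunits. At least 2-fold higher than each of the other 3 populations, with no cornea library overlapping any other, were 20 of the 34 members (58.8%), where 13.8% of all 15754 genes tested met the same rule. At a 4-fold difference 11 members (32.4%) met it, against 8.35% of all genes. On the other side 2 members, Atp6v0a2 and Lamtor4, lay at least 2-fold below all 3 (5.88% of members, against 9.61% of all genes). The median member stood 3.06-fold above retinal microglia, 3.61-fold above brain microglia and 4.12-fold above monocytes, where the median of all genes was 0.917, 0.992 and 0.993. These shares describe genes picked on these contrasts and nothing is read from them. With total counts in place of TMM factors, the median of all genes moved by -0.79, -0.67 and -0.67 on the log2 scale against retina, brain and marrow. The 2-fold rule against all 3 populations was then met by 13 members, and none of the 20 changed direction. Members at the 4-fold level numbered 8 instead of 11, and both lower members stayed lower. The shares of all genes under total counts are not given here.

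Taken population by population, 22 members were at least 2-fold higher in cornea macrophages than in retinal microglia without overlap (22.6% of all genes were), 21 than in brain microglia (25.4%) and 22 than in monocytes (23.3%). The lower members were 3 against retinal microglia (25.4% of all genes), 2 against brain microglia (24.1%) and 2 against monocytes (21.2%). By role, V1 subunits gave 8, 8 and 7 of 9 higher against retina, brain and marrow, V0 subunits 6, 5 and 7 of 8, and Rag GTPases 3 of 4 each time. Ragulator gave 1 of 5 each time, mucolipins 2 of 3, LAMP proteins 1 of 3 and the accessory proteins 1 of 2. By the lane tags in the column names, 3 cornea libraries were on lane 2 beside all retinal libraries and 1 monocyte library. The remaining 1 cornea library was on lane 3 beside all brain libraries and the other monocyte libraries. The names give no flow cell or run, so libraries with the same tag need not have been run together. Within lanes, 19 of the 20 higher members kept a 2-fold difference without overlap in all 4 comparisons that could be made, the exception being Atp6v0e at 1.889-fold over the lane's single monocyte library, and both lower members kept theirs. Without the 2 cornea libraries that held most keratocyte transcripts, the counts were again 20, 11 and 2.

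**Figure D1:**
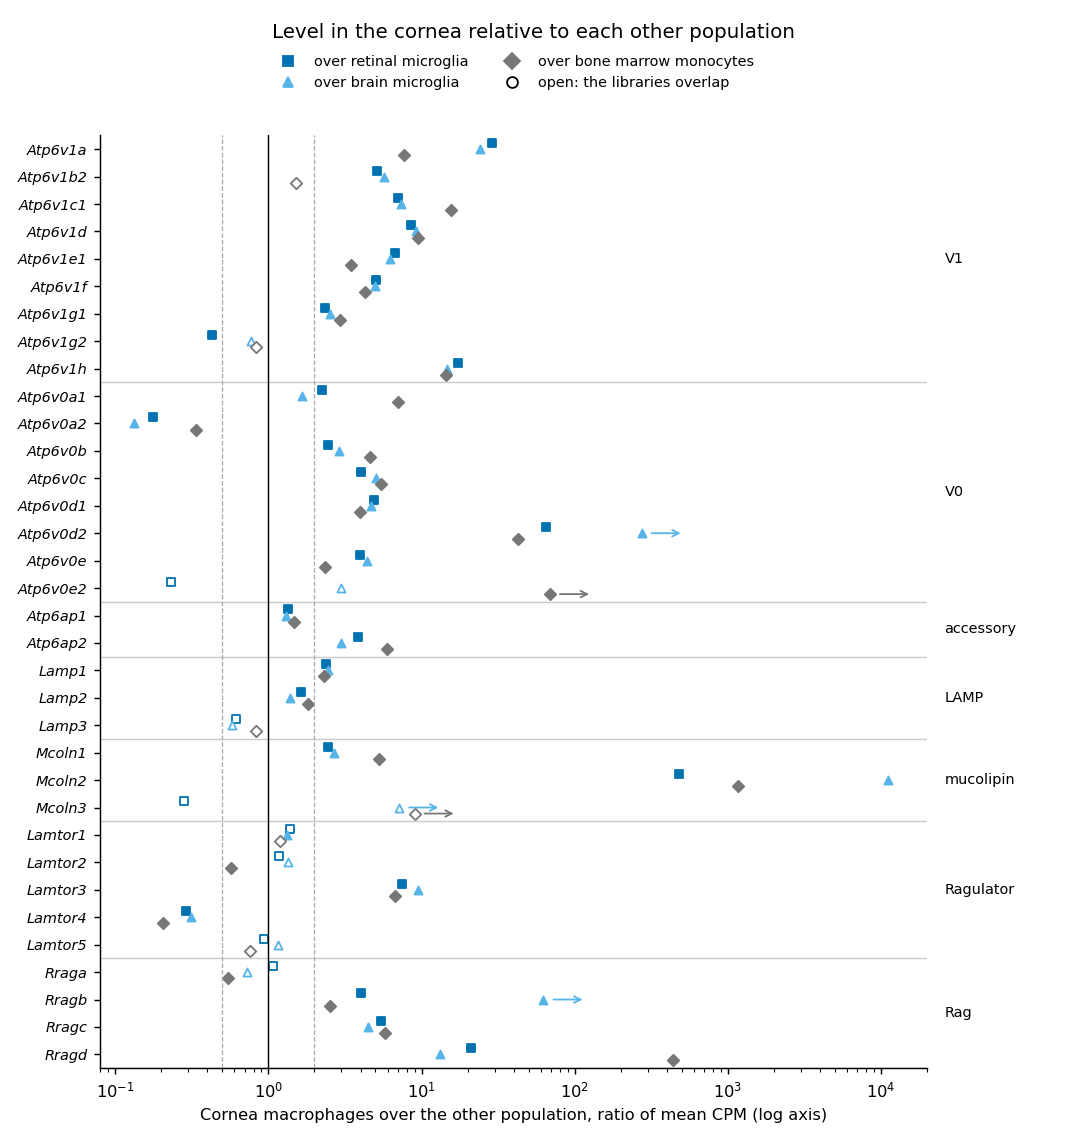
Ratio of mean CPM in cornea macrophages over each of the other populations for the 34 members, grouped by role on the vertical axis, with a log horizontal axis and dashed lines at 0.5 and 2. Open symbols mark pairs whose libraries overlap and arrows mark lower bounds; where a population had 3 counts or fewer the ratio of pooled counts is drawn. V1 subunits lie to the right of 2 except Atp6v1g2 and, against monocytes, Atp6v1b2, while Atp6v0a2 and Lamtor4 lie left of 0.5 throughout.

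Atp6v1h, the H subunit that couples V1 to V0 and restrains ATP hydrolysis when the sectors come apart, lies on chromosome 1 (5070018 to 5162529, plus strand, in 14 merged exons of the GENCODE annotation on GRCm38, the source of the gene positions given here). It was counted at 1471, 1831, 1612 and 1744 CPM in the cornea libraries, at 88.0, 97.6, 108 and 90.6 CPM in the retinal, 111, 112, 115 and 119 CPM in the brain and 109, 94.5, 123 and 132 CPM in the monocyte libraries. The lowest cornea library thus stood far above the highest of the other 12, while retina, brain and marrow lay close together, retina just below brain without overlap. The ratio of means was 17.3 over retina, 14.6 over brain and 14.5 over monocytes. Of the contrasts without cornea none passed the threshold: the log2 fold change was -0.25 ± 0.12 for retina minus brain (adjusted p = 0.21), -0.25 ± 0.12 for retina minus monocytes (adjusted p = 0.0753) and -0.01 ± 0.12 for brain minus monocytes (adjusted p = 0.986). As a ratio to Lamp1 within each library, which no scaling can change, Atp6v1h reads were 44.4% ± 4.58 of Lamp1 reads in the cornea, 6.12% ± 0.665 in retina, 7.51% ± 0.139 in brain and 7.09% ± 0.752 in monocytes.

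The genes taken as neighbours of Atp6v1h on chromosome 1, the farthest of them Rb1cc1 with its start at 6206197, did not come near its cornea ratios. Tcea1, a transcription elongation factor, averaged 38.4 ± 1.61 CPM in the cornea, 27.7 ± 4.95 in retina, 34.0 ± 4.05 in brain and 41.5 ± 12.2 in monocytes. Rb1cc1, a subunit of the complex that starts autophagy, averaged 92.6 ± 16.0 CPM in the cornea, 59.0 ± 11.5 in retina, 70.1 ± 5.62 in brain and 73.6 ± 13 in monocytes. Without overlap, the cornea was 1.57-fold above retina and 1.32-fold above brain for Rb1cc1, and 1.39-fold above retina for Tcea1. Rgs20, whose exons overlap those of Atp6v1h by 127 bases on the opposite strand, averaged 0.122 CPM in the cornea and 2.19 CPM in retina, and Oprk1 and Npbwr1 were near 0 in all populations. Exons of 7 other members overlap a gene on the opposite strand (Atp6v0a2, Atp6v0b, Atp6v1e1, Atp6v1g2, Lamp1, Lamtor1 and Rragc), and since the strand setting of the counting is not stated in the labels used, reads of the 2 genes cannot be told apart in those stretches. For 10 members (Atp6ap2, Atp6v0a2, Atp6v0c, Atp6v1f, Atp6v1g1, Lamp3, Lamtor1, Lamtor3, Lamtor5 and Rragc) another annotated gene or pseudogene matches at least 200 bases at 95% identity or more, so their reads may be split. For Atp6v0a2 and Rragc the match is the overlapping gene on the opposite strand itself, not a further copy elsewhere.

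Atp6v1a and Atp6v1b2 encode the A and B subunits, which form the catalytic ring. Atp6v1a (chromosome 16, 44085402 to 44139705) had 2574, 2498, 2291 and 2009.8 CPM in cornea libraries, 109, 64.1, 80.1 and 73.2 CPM in retina, 89.0, 81.4, 125 and 96.6 CPM in brain and 309, 244, 309 and 366 CPM in monocytes. The populations fell into 3 levels, with cornea highest, monocytes between and both microglia lowest, and none of the 3 levels overlapped. Cornea stood 28.7-fold above retina, 23.9-fold above brain and 7.64-fold above monocytes. Atp6v1a was lower in retinal microglia than in monocytes, with a log2 fold change of -1.91 ± 0.18 (adjusted p = 1.01e-07), and lower in brain microglia, at -1.65 ± 0.18 (adjusted p = 5.08e-07).

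Atp6v1b2 had 970.4, 1264, 1066 and 1762 CPM in cornea libraries, 239, 242, 243 and 265 CPM in retina, 209.7, 237, 201 and 241 CPM in brain and 734, 815, 827 and 976 CPM in monocytes. Here the lowest cornea library lay below the highest monocyte library, so those groups overlapped, and both microglia were again lowest. The ratios were 5.12 over retina, 5.69 over brain and 1.51 over monocytes, the last of which turned round with total counts. Against monocytes, Atp6v1b2 was lower, with a log2 fold change of -1.76 ± 0.16 in retinal microglia (adjusted p = 7.27e-08) and of -1.92 ± 0.16 in brain microglia (adjusted p = 2.26e-08).

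Atp6v1c1, the C subunit that clamps the stator stalks and leaves when the pump disassembles, followed another order. It had 1299, 1477, 1239 and 1409.6 CPM in cornea libraries, 201, 185, 226 and 162 CPM in retina, 211, 191, 168 and 168 CPM in brain and 81.6, 67.8, 88.4 and 109.6 CPM in monocytes. Monocytes were the lowest group, without overlap. Cornea stood 7.00-fold above retina, 7.36-fold above brain and 15.6-fold above monocytes. Atp6v1c1 was higher than in monocytes in retinal microglia (log2 fold change 1.16 ± 0.15, adjusted p = 3.87e-06) and in brain microglia (1.09 ± 0.15, adjusted p = 7.28e-06), the opposite direction to Atp6v1a and Atp6v1b2.

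Atp6v1d, part of the central rotor, had 638, 679, 700.1 and 864 CPM in cornea libraries, 60.1, 88.9, 108 and 78.6 CPM in retina, 82.9, 78.1, 72.4 and 80.0 CPM in brain and 76.8, 76.4, 72.7 and 77.5 CPM in monocytes. Its ratios of 8.59, 9.19 and 9.50 over retina, brain and marrow were nearly even, and no contrast without cornea was called. The stator subunit Atp6v1e1 had 534, 578, 559.8 and 594 CPM in cornea libraries, 70.7, 80.5, 93.9 and 92.1 CPM in retina, 92.9, 82.3, 86.4 and 104 CPM in brain and 181, 162, 149 and 161 CPM in monocytes. Like the catalytic subunits it had both microglia lowest. Relative to monocytes it was lower, with a log2 fold change of -0.95 ± 0.12 in retinal microglia (adjusted p = 2.54e-06) and of -0.84 ± 0.12 in brain microglia (adjusted p = 1.02e-05). Atp6v1f, a further rotor subunit, had 259, 252, 231 and 312 CPM in cornea libraries, 44.5, 47.2, 70.5 and 46.9 CPM in retina, 49.6, 57.5, 48.3 and 55.4 CPM in brain and 77.3, 76.2, 48.8 and 45.0 CPM in monocytes, and the other 3 populations overlapped.

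The G subunits belong to the stator. Atp6v1g1, the form used by most cells, averaged 309 ± 35.1 CPM in the cornea, 133 ± 28.4 in retina, 123 ± 16.1 in brain and 106 ± 4.78 in monocytes, with cornea ratios of 2.33 over retina, 2.52 over brain and 2.92 over monocytes. Atp6v1g2, known from neurons, averaged 1.55 ± 0.876 CPM in the cornea, 3.64 ± 1.37 in retina, 2.01 ± 1.08 in brain and 1.85 ± 0.688 in monocytes. It was the only V1 gene kept that was lower in the cornea than in retina without overlap, and it was close to the lowest levels counted. Per kilobase of the deposited gene length, cornea levels of the 9 V1 genes ranged from 0.616 CPM per kb for Atp6v1g2 to 647 for Atp6v1c1, with Atp6v1d at 513, Atp6v1a at 388 and Atp6v1h at 171. This order depends on the length used, since the deposited length differed from the GENCODE exon length for 9 of the 34 members, Atp6v1c1, Atp6v1d and Atp6v1e1 among them. With GENCODE lengths, Atp6v1a led in the cornea at 388 CPM per kb, against 242 for Atp6v1c1, 157 for Atp6v1d and 138 for Atp6v1e1. In retinal microglia Atp6v1h, at 9.86 CPM per kb, was the lowest V1 gene after Atp6v1g2 with either length, while in the cornea it was so with the deposited lengths only.

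**Figure D2:**
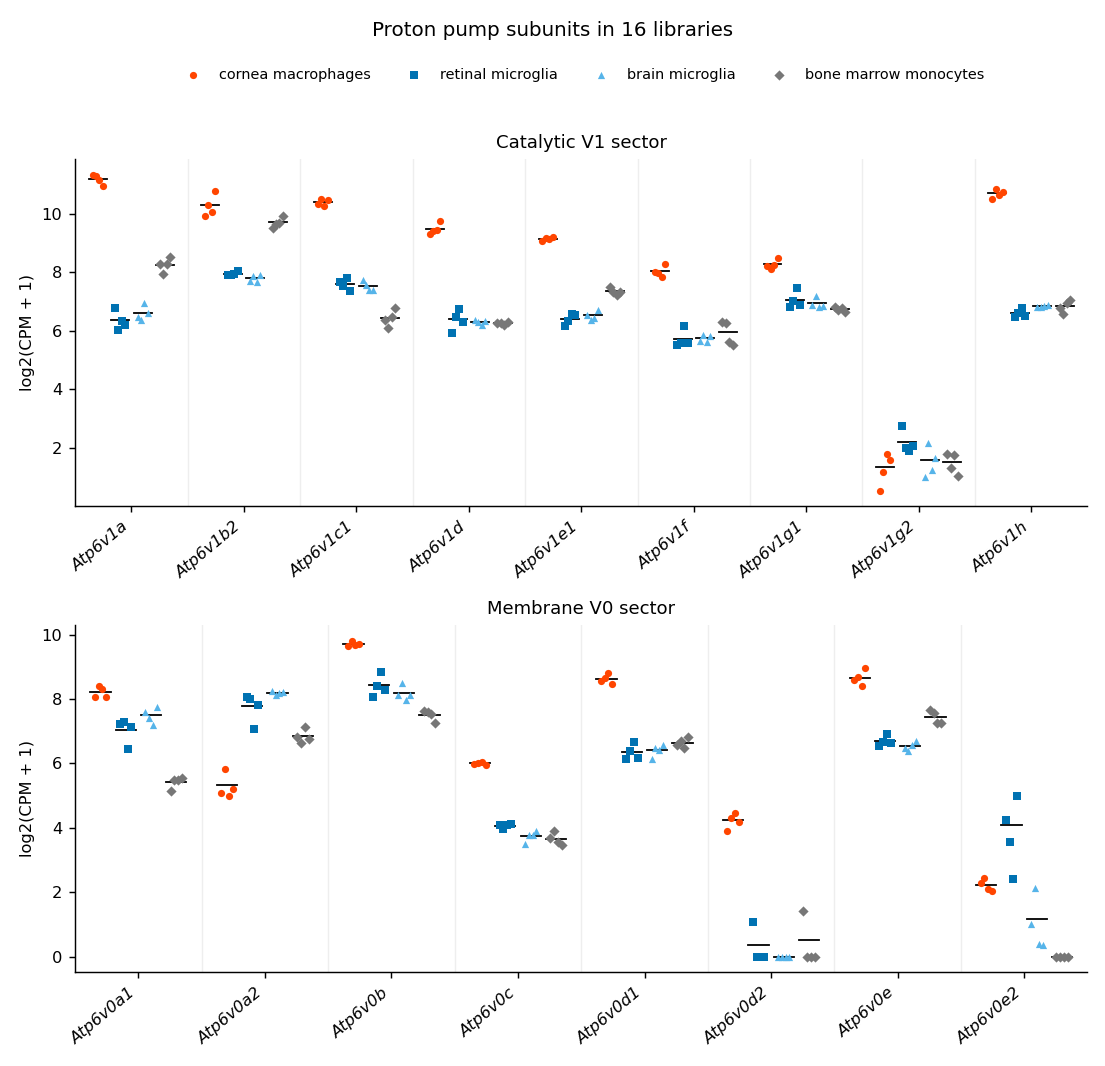
Levels of the V1 subunits (upper panel) and V0 subunits (lower panel) as log2(CPM + 1) in each of the 16 libraries; points are libraries, short bars are the mean CPM of 4 libraries, and populations run cornea, retina, brain and marrow from left to right within each gene. Cornea points stand apart above the rest for Atp6v1h, Atp6v1a, Atp6v1c1 and Atp6v1d, and below the rest for Atp6v0a2.

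The a subunit of V0 forms the proton path with the c ring and sets where the pump is placed, and its isoforms went in opposite directions. Atp6v0a1 had 269, 338, 317 and 265 CPM in cornea libraries, 147, 154, 86.8 and 139 CPM in retina, 192, 168, 144 and 213 CPM in brain and 34.7, 44.0, 44.1 and 46.2 CPM in monocytes. Cornea was above all others and monocytes were below all others. Against monocytes, Atp6v0a1 was higher by 1.64 ± 0.18 on the log2 scale in retinal microglia (adjusted p = 5.85e-07) and by 2.09 ± 0.18 in brain microglia (adjusted p = 2.98e-08). Atp6v0a2 (chromosome 5, 124628576 to 124724455), an isoform known from the Golgi and endosomes, had 32.9, 55.9, 30.8 and 35.5 CPM in cornea libraries, 265, 258, 133 and 223 CPM in retina, 304, 278, 288 and 300.0 CPM in brain and 112, 98.0, 139.8 and 108 CPM in monocytes. Every cornea library was below every other library, by 5.67-fold in means against retina, 7.54-fold against brain and 2.95-fold against monocytes. Brain microglia were higher than monocytes, with a log2 fold change of 1.35 ± 0.21 (adjusted p = 3.28e-05). Retinal microglia were also called higher, at 0.94 ± 0.21 (adjusted p = 0.000977), although retinal replicate 3 fell within the monocyte range.

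The remaining isoform of lysosomes and osteoclasts, Tcirg1 (a3), carries another name and was not in the set. It averaged 274 ± 39.0 CPM in the cornea, 192 ± 35.2 in retina, 100.3 ± 13.5 in brain and 114 ± 21.4 in monocytes, and was higher in retinal than in brain microglia by 0.94 ± 0.16 on the log2 scale (adjusted p = 0.00124). Taken as shares of reads per kilobase of the 3 genes together, Atp6v0a2 held 5.14% ± 1.40 in cornea macrophages, 33.7% ± 7.47 in retinal microglia, 46.8% ± 2.77 in brain microglia and 34.9% ± 3.46 in monocytes. The Atp6v0a1 share was 40.4% ± 3.81 in the cornea, 20.8% ± 3.82 in retina, 29.2% ± 3.05 in brain and 13.3% ± 2.24 in monocytes. Tcirg1 made up 54.4% ± 4.78 in the cornea, 45.4% ± 11.2 in retina, 24.1% ± 2.74 in brain and 51.8% ± 4.14 in monocytes. Per kilobase, Tcirg1 thus had the largest mean share in cornea, retina and monocytes and Atp6v0a2 in brain. Without division by length the order turned in the first 3, with Atp6v0a1 at 48.8% over Tcirg1 at 44.9% in the cornea, and Atp6v0a2 over Tcirg1 at 39.8% and 36.2% in retina and at 42.3% and 41.9% in monocytes. Among the retinal libraries, replicate 3, at 62.2% Tcirg1 per kilobase, stood apart from the others. The a4 isoform Atp6v0a4, known from kidney, had 4 reads in all.

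**Figure D3:**
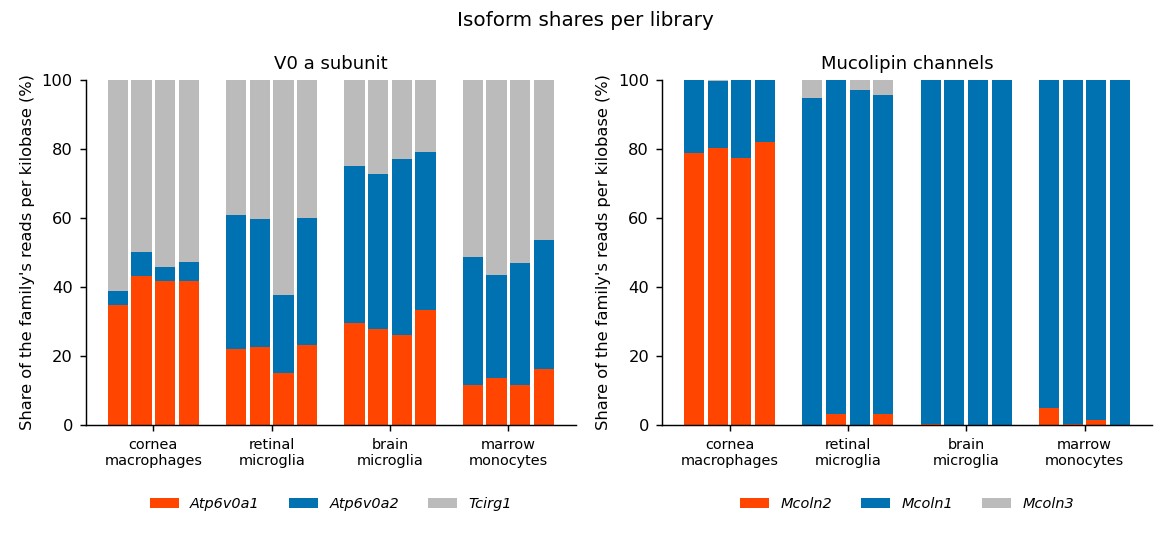
Share of reads per kilobase, in percent, held by each V0 a subunit isoform (left panel) and each mucolipin (right panel), 1 stacked bar per library, ordered cornea, retina, brain and marrow. Atp6v0a2 is a thin band in the 4 cornea bars and Mcoln2 fills most of them, while Mcoln1 fills nearly all of each bar elsewhere.

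Atp6v0c and Atp6v0b encode the c and c'' subunits of the rotating ring. Atp6v0c had 61.7, 64.3, 64.8 and 61.0 CPM in cornea libraries, 15.9, 14.5, 16.1 and 16.2 CPM in retina, 10.3, 12.6, 12.8 and 14.1 CPM in brain and 11.7, 14.0, 10.8 and 10.2 CPM in monocytes. Cornea libraries were far above the rest, retinal libraries lay just above brain and marrow without overlap, and near-identical processed pseudogenes can draw reads from this gene. The retinal level was called higher than the monocyte level at 0.43 ± 0.15 on the log2 scale (adjusted p = 0.0181), a call lost in 7 of the alternative analyses. Atp6v0b averaged 841 ± 36.9 CPM in the cornea, 344 ± 81.6 in retina, 291 ± 46.4 in brain and 181 ± 20.0 in monocytes. It was higher than in monocytes in retinal microglia (0.92 ± 0.16, adjusted p = 7.87e-05) and in brain microglia (0.68 ± 0.15, adjusted p = 0.0012).

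Subunit d joins the ring to the central stalk. The widely used form Atp6v0d1 had 373, 399, 451 and 352 CPM in cornea libraries, 69.6, 81.8, 99.6 and 71.4 CPM in retina, 68.8, 88.3, 85.2 and 94.2 CPM in brain and 93.8, 103, 88.0 and 112 CPM in monocytes. Atp6v0d2, known from osteoclasts and some macrophages, had 14.1, 18.9, 21.2 and 17.2 CPM in cornea libraries, 1.10, 0, 0 and 0 CPM in retina, 0 in all brain libraries and 1.67, 0, 0 and 0 CPM in monocytes. Outside the cornea it was thus counted in 1 retinal and 1 monocyte library. The cornea mean was 64.6 times the retinal and 42.7 times the monocyte mean, and at least 269.7-fold higher than brain, taken against 3 counts over the 4 brain libraries. Per kilobase it was still only 2.90% ± 0.317 of the d subunit reads in the cornea. Summed osteoclast markers were 112 to 213 CPM in cornea libraries, mostly Acp5, 1.19 CPM at most in the microglia and 8.45 to 89.9 CPM in monocyte libraries, where the highest was replicate 1, also the monocyte library with Atp6v0d2 reads, with Calcr at 0.0213 CPM in the cornea; their part in the result was not tested.

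Atp6v0e and Atp6v0e2 encode the small e subunit. Atp6v0e had 386, 406, 336 and 494 CPM in cornea libraries, 92.6, 101, 119.7 and 98.3 CPM in retina, 88.1, 83.0, 94.3 and 104 CPM in brain and 199, 187, 152 and 153 CPM in monocytes. Both microglia were below monocytes, at -0.75 ± 0.14 on the log2 scale in retina (adjusted p = 0.000211) and -0.90 ± 0.14 in brain (adjusted p = 3.13e-05). Atp6v0e2, known from brain, had 3.86, 4.43, 3.31 and 3.12 CPM in cornea libraries, 17.9, 10.8, 4.26 and 30.7 CPM in retina, 1.03, 3.35, 0.298 and 0.29 CPM in brain and 0 in all monocyte libraries. The retinal mean was the highest and retinal libraries did not overlap brain or marrow, but they varied most among themselves and replicate 3 lay within the cornea range. The retinal level exceeded the brain level by 3.70 ± 0.75 on the log2 scale (adjusted p = 0.00566), and against 3 counts over the monocyte libraries it was at least 304-fold higher. Summed photoreceptor markers ran in the same order over the retinal libraries, at 3358.5, 2158, 775 and 7264 CPM for replicates 1 to 4; their part in the result was not tested, and without replicates 1 and 4 the call was lost at a log2 fold change of 2.62.

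Of the accessory proteins, Atp6ap2, also known as the prorenin receptor, had 839.7, 864, 849 and 766 CPM in cornea libraries, 228, 188, 276 and 174 CPM in retina, 249, 306, 293 and 273 CPM in brain and 142, 116, 146 and 157 CPM in monocytes. Cornea libraries were above and monocyte libraries below all others. Against monocytes it was higher by 0.63 ± 0.14 on the log2 scale in retina (adjusted p = 0.00112) and by 1.00 ± 0.14 in brain (adjusted p = 1.24e-05). Atp6ap1, an assembly and sorting factor of the pump, differed far less, with 920.3 ± 105 CPM in the cornea, 680.2 ± 114 in retina, 709.6 ± 46.8 in brain and 629 ± 16.2 in monocytes. With total counts its direction in all 3 cornea contrasts turned round.

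LAMP proteins are the main glycoproteins of the lysosomal membrane. Lamp1 averaged 3752 ± 110.3 CPM in the cornea, 1583 ± 210.5 in retina, 1521 ± 50.3 in brain and 1614 ± 117 in monocytes. The cornea ratios of 2.37, 2.47 and 2.32 lay below those of most V1 subunits, and no contrast among the other 3 was called. Lamp2, which also serves chaperone-mediated autophagy, averaged 1659 ± 245 CPM in the cornea, 1020.4 ± 134 in retina, 1200.3 ± 151 in brain and 918 ± 79.4 in monocytes. It was called higher in brain microglia than in monocytes at 0.39 ± 0.14 on the log2 scale (adjusted p = 0.0227), and lost that call in 5 alternatives. With total counts the cornea mean of Lamp2 fell below those of retina and brain. Lamp3, the dendritic cell LAMP, stayed between 2.19 and 3.78 CPM in mean in all 4 populations.

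Mucolipins are cation channels of endosomes and lysosomes, and the most abundant one in the cornea was not that of the other populations. Mcoln2 (chromosome 3, 146149833 to 146195513) had 457, 550.5, 442 and 508 CPM in cornea libraries, 0.0789, 1.86, 0 and 2.13 CPM in retina, 0.171, 0, 0 and 0 CPM in brain and 1.13, 0.0997, 0.457 and 0 CPM in monocytes. It was thus abundant in every cornea library, while each of the other 12 held between 0 and 53 reads. The mean was 481-fold that of retina and 1161-fold that of monocytes. Brain had 2 reads in all, for a pooled ratio of 11145 with an exact 95% interval of 3085 to 92030 that covers counting error only. Retina against brain and either against monocytes was not called in the main fit. Retina against brain was called with DESeq2, with no filter, and without retinal replicate 1 or 3. Without the 3 libraries whose titles lack the letter b, all of these contrasts were called. The other alternatives did not call retina against brain.

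Mcoln1, the channel whose loss causes mucolipidosis in humans, had 122, 132, 129 and 111 CPM in cornea libraries, 43.2, 55.1, 43.7 and 59.8 CPM in retina, 51.2, 51.5, 35.9 and 45.0 CPM in brain and 20.8, 27.0, 28.0 and 17.8 CPM in monocytes. Cornea was highest and monocytes lowest, without overlap. Mcoln1 was higher than in monocytes by 1.11 ± 0.17 on the log2 scale in retinal microglia (adjusted p = 3.04e-05) and by 0.98 ± 0.17 in brain microglia (adjusted p = 0.000117). Per kilobase of the deposited lengths, Mcoln2 held 79.6% ± 2.05 of mucolipin reads in the cornea, against 1.67% ± 1.83 in retina, 0.0828% ± 0.166 in brain and 1.77% ± 2.33 in monocytes. With the longer GENCODE exon length of Mcoln1, it held 90.0% in the cornea and 3.61% in retina. Mcoln3, which lies next to Mcoln2 (chromosome 3, 146117450 to 146141806), had reads in cornea replicate 2 (0.49 CPM as the cornea mean) and in retinal replicates 1, 3 and 4 (1.75 CPM as the retinal mean), and none in brain or marrow. Retina was called above monocytes (adjusted p = 0.0194) and stood at least 33.4-fold higher against 3 counts over the monocyte libraries. That call was lost in 5 of the 17 alternatives in which the gene was tested, among them leaving out retinal replicates 1 and 4; with these populations fitted alone it fell under the filter on low counts.

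Ragulator has 5 subunits, of which Lamtor1 holds the complex to the membrane and Lamtor2 with Lamtor3, and Lamtor4 with Lamtor5, form pairs inside it. Cornea values of Lamtor3 and Lamtor4 went in opposite directions. Lamtor3 (chromosome 3, 137918506 to 137928900) had 224, 232, 242 and 256 CPM in cornea libraries, 30.7, 31.1, 30.7 and 35.1 CPM in retina, 25.9, 27.5, 25.2 and 21.5 CPM in brain and 33.5, 36.6, 38.9 and 34.0 CPM in monocytes. The cornea stood 7.48-fold above retina, 9.53-fold above brain and 6.68-fold above monocytes. A processed pseudogene in the table, Gm5900, is 99.5% identical over 375 bases, so the split of reads between them is uncertain. Lamtor3 was lower in brain microglia than in monocytes (-0.51 ± 0.11, adjusted p = 0.000918).

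Lamtor4 (chromosome 5, 138255482 to 138259398) had 11.1, 11.6, 10.8 and 13.8 CPM in cornea libraries, 35.3, 38.2, 55.0 and 35.7 CPM in retina, 31.5, 39.3, 35.5 and 44.5 CPM in brain and 71.3, 68.5, 48.0 and 41.2 CPM in monocytes. Every cornea library was below every other, by 3.48-fold against retina, 3.19-fold against brain and 4.84-fold against monocytes. Lamtor4 was called lower than in monocytes, with a log2 fold change of -0.60 ± 0.20 in brain microglia (adjusted p = 0.0155) and of -0.48 ± 0.20 in retinal microglia (adjusted p = 0.0453), both with overlapping libraries. The retinal call was lost in 13 of 18 alternatives, RLE factors and DESeq2 among them, and the brain call in 4 of 18. Without monocyte replicates 1 and 2, which held most granulocyte and erythroid transcripts, those values were -0.25 and -0.13 and neither was called.

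Lamtor2 was the Ragulator subunit with the clearest difference between microglia and monocytes, with 25.4, 24.5, 31.5 and 28.5 CPM in retinal libraries and 25.8, 28.3, 20.6 and 21.9 CPM in brain libraries, against 61.4, 71.8, 49.2 and 43.5 CPM in monocyte libraries. Both microglia groups were below all monocyte libraries, at -1.04 ± 0.20 on the log2 scale for retina (adjusted p = 0.000299) and -1.23 ± 0.20 for brain (adjusted p = 6.55e-05). In the cornea Lamtor2 averaged 32.2 ± 8.51 CPM. Lamtor1 averaged 75.7 ± 6.29 CPM in the cornea, 54.4 ± 14.3 in retina, 57.2 ± 7.02 in brain and 64.0 ± 10.8 in monocytes and was called in no contrast. Lamtor5 averaged 31.2 ± 5.13 CPM in the cornea, 33.2 ± 10.8 in retina, 26.9 ± 4.94 in brain and 41.1 ± 10.5 in monocytes, with a brain minus monocyte change of -0.62 ± 0.23 (adjusted p = 0.0319) that 7 alternatives lost. Against retina and brain, the cornea direction of Lamtor1 and Lamtor2 turned round with total counts, as did Lamtor1 against monocytes and Lamtor5 against brain.

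A Rag heterodimer takes 1 partner from RagA and RagB and the other from RagC and RagD, and both RagC-type partners stood far above the other populations in the cornea. Rragc had 710.1, 804, 668 and 745 CPM in cornea libraries, 148, 144, 127 and 119 CPM in retina, 162, 177, 169 and 151 CPM in brain and 120.0, 118, 148 and 122 CPM in monocytes. The cornea stood 5.44-fold above retina, 4.44-fold above brain and 5.75-fold above monocytes. Rragd (chromosome 4, 32983037 to 33022180) had 40.8, 33.7, 41.3 and 43.0 CPM in cornea libraries, 3.00, 3.71, 0.377 and 0.443 CPM in retina, 3.26, 2.13, 5.65 and 1.02 CPM in brain and 0.271, 0, 0.0913 and 0 CPM in monocytes. Its levels fell into 3 tiers, cornea above both microglia and microglia above monocytes, in which 7 reads were counted in all. The cornea ratios were 21.1 over retina, 13.2 over brain and 438 over monocytes. Rragd exceeded the monocyte level by 3.89 ± 0.92 on the log2 scale in retinal microglia (adjusted p = 0.00163) and by 4.59 ± 0.91 in brain microglia (adjusted p = 0.000372). Rragc did so in brain microglia at 0.37 ± 0.11 (adjusted p = 0.00984), a call lost without monocyte replicates 1 and 2.

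Rraga had 37.4, 34.1, 34.4 and 36.9 CPM in cornea libraries, 31.8, 32.4, 33.3 and 36.6 CPM in retina, 46.2, 36.6, 51.6 and 63.5 CPM in brain and 68.5, 53.4, 70.0 and 68.3 CPM in monocytes. Retinal microglia were lower than monocytes at -0.96 ± 0.15 on the log2 scale (adjusted p = 5.07e-05). The smaller differences of retina minus brain (-0.56 ± 0.15, adjusted p = 0.0267) and of brain minus monocytes (-0.39 ± 0.15, adjusted p = 0.0375) were lost in 10 and 12 alternatives. With total counts Rraga was lower in the cornea than in retina. Rragb, the second RagA-type partner, had 2.95, 4.01, 5.54 and 3.72 CPM in cornea libraries, 1.34, 0, 0 and 2.66 CPM in retina, 0 in all brain libraries and 1.40, 1.30, 2.74 and 0.994 CPM in monocytes. Retina stood at least 15.1-fold above brain against 3 counts over the brain libraries (adjusted p = 0.0356). The retinal reads came from replicates 1 and 4, the libraries with most photoreceptor transcripts, and replicates 2 and 3 had none. The call was lost in 9 of the 16 alternatives in which the gene was tested, including limma-voom, lane as a term and the omission of any single brain library. Brain was called lower than monocytes as well (adjusted p = 0.00362). Cornea was above all other libraries for Rragb, yet Rraga was the more abundant of the pair in the cornea too, at 22.1 CPM per kb against 1.79 CPM per kb for Rragb.

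**Figure D4:**
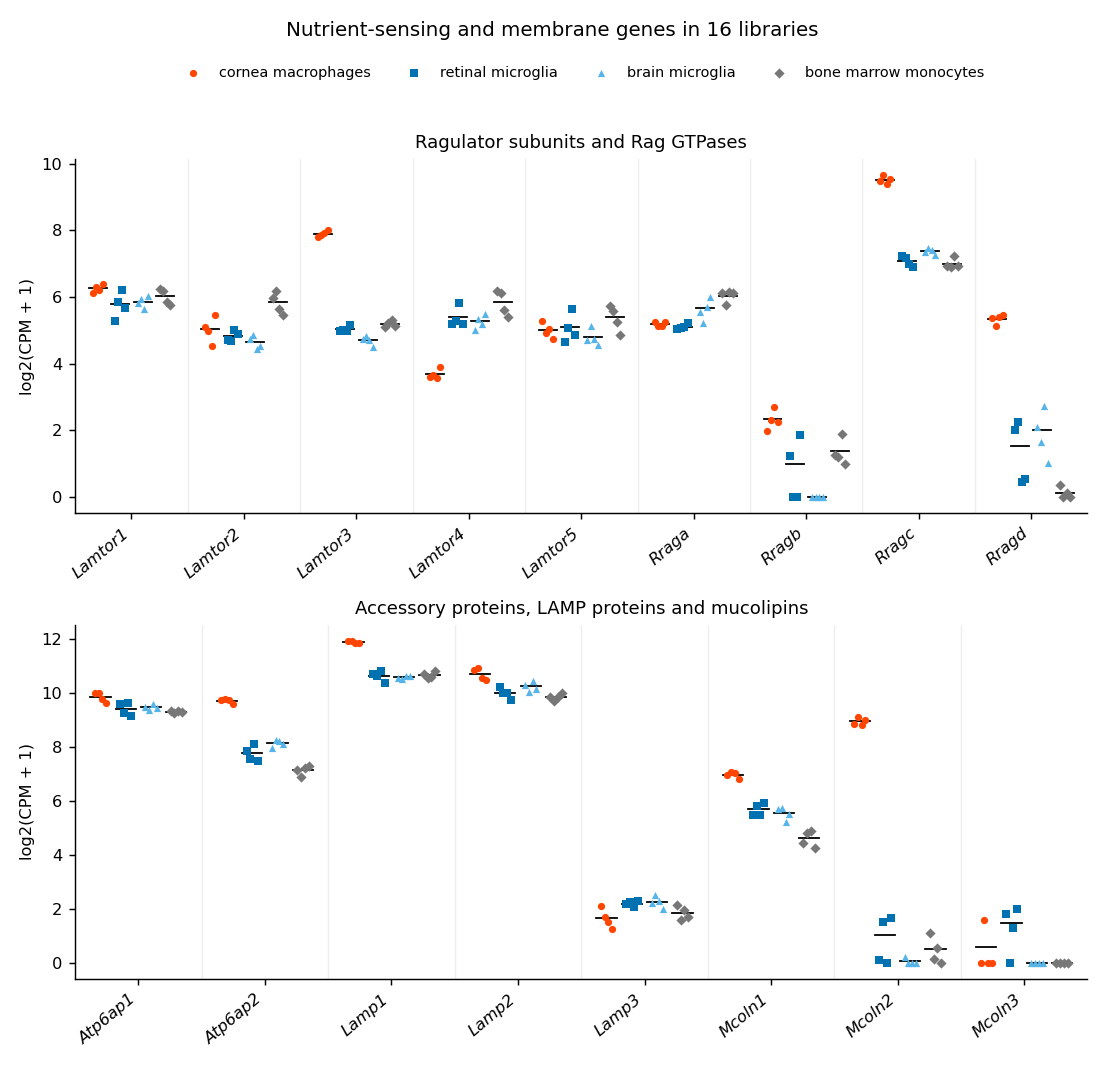
Levels as log2(CPM + 1) of the Ragulator and Rag genes (upper panel) and of the accessory, LAMP and mucolipin genes (lower panel) in each of the 16 libraries; points are libraries, short bars are the mean CPM of 4 libraries, ordered cornea, retina, brain and marrow. Cornea points are alone at the top for Lamtor3, Rragc, Rragd and Mcoln2 and alone at the bottom for Lamtor4.

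Against bone marrow monocytes, both microglia had called members at about the rate of all genes. These contrasts were tested with edgeR over all genes, and they share the same 4 monocyte libraries, so their values are set side by side and their agreement is not counted. In retinal microglia 10 of 34 members were higher (29.4%, against 32.2% of all genes) and 7 lower (20.6%, against 27.1%). In brain microglia 10 were higher (29.4%, against 28.5% of all genes) and 10 lower (29.4%, against 27.4%). The median member had a ratio of 1.07 in retina over monocytes and 0.996 in brain over monocytes, where all genes had 1.10 and 1.05. Of the 9 V1 genes, 1 was higher and 3 lower in each contrast, and of the 8 V0 genes 5 were higher and 1 lower in retina, and 4 higher and 1 lower in brain. Ragulator had 0 higher and 2 lower in retina, and 0 higher and 4 lower in brain. Mucolipins had 2 higher and 0 lower in retina, and 1 higher and 0 lower in brain.

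**Figure D5:**
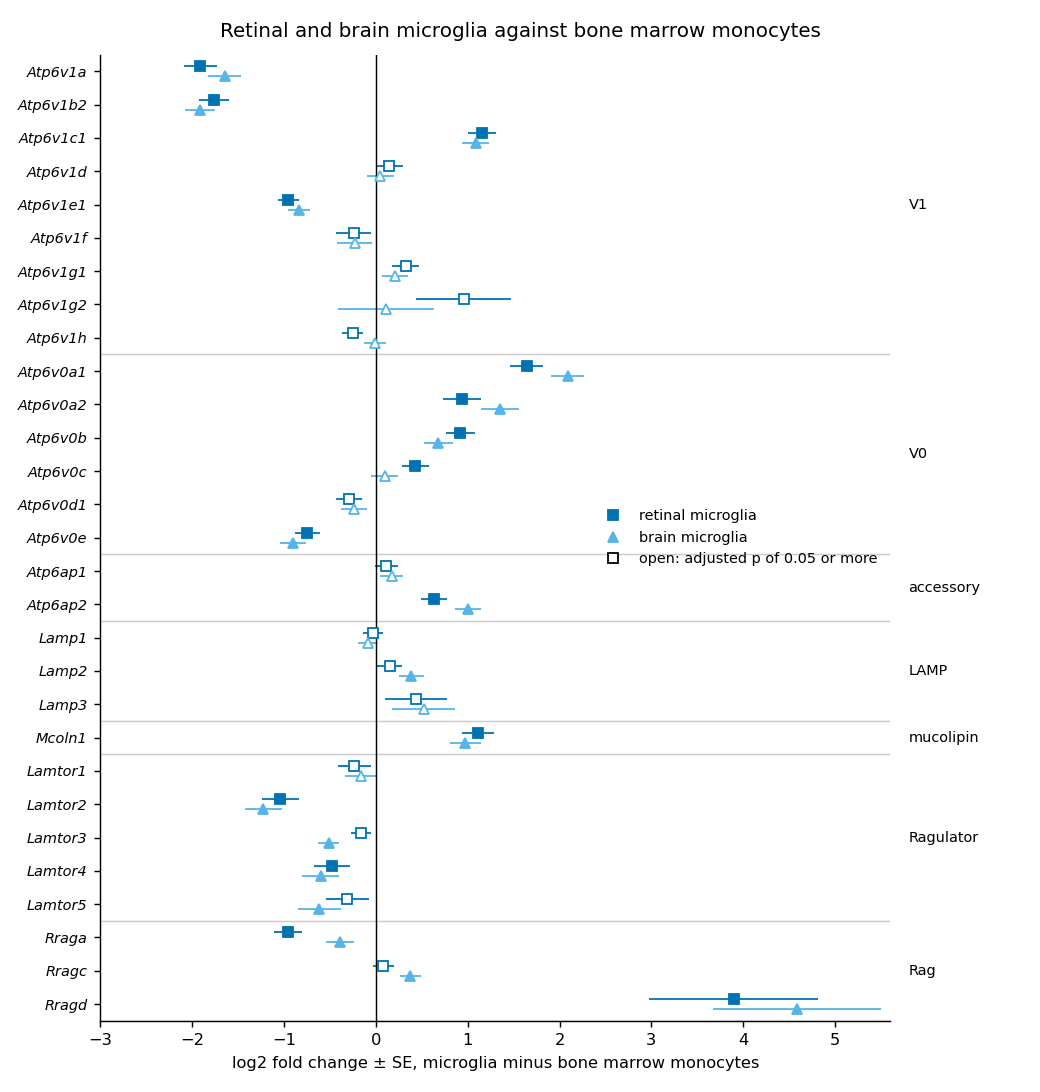
Log2 fold change ± SE of retinal and of brain microglia over bone marrow monocytes for 29 members, grouped by role; filled symbols have an adjusted p under 0.05. The 5 members with 3 counts or fewer in a population (Atp6v0d2, Atp6v0e2, Mcoln2, Mcoln3 and Rragb) are left out. Atp6v1a, Atp6v1b2 and Atp6v1e1 lie left of 0 and Atp6v0a1, Atp6v1c1, Mcoln1 and Rragd right of 0 for both microglia.

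Between retinal and brain microglia 2 members were called higher in retina, Atp6v0e2 and Rragb (5.88% of members, against 6.95% of all genes), and 1 lower, Rraga (2.94%, against 3.6%). The median member ratio of retina over brain was 1.06, and that of all genes 1.03. At an unadjusted p under 0.05 the number was 10. The share of all genes at that threshold was not counted, so nothing is read from that number. All retinal libraries were tagged lane 2 and all brain libraries lane 3, and with lane as a term, which then rests on the cornea and monocyte libraries, no member was called.

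Other genes of the lysosome were taken from lists by function, also chosen with earlier results known, and most did not share the cornea pattern of the pump. Of 30 lysosomal hydrolases, 3 were at least 2-fold above all 3 other populations without overlap (Gla, Acp5 and Lipa) and 3 below (Smpd1 and Man2b1 among them). Of 24 other lysosomal membrane proteins tested, 6 were above (Slc15a3, Cd63, Cd68, Clcn7, Ctns and Tpcn2) and 0 below. Of 31 tested regulators of mTORC1, 5 were above (Fnip2, Fnip1, Flcn, Rheb and Sesn2) and 5 below (Sesn1, Slc38a9, Nprl2, Wdr24 and Rhebl1). Of 4 MiT/TFE factors, Tfec and Mitf were above, and of 12 further pump genes Vma21 was above and Tldc1 below. The rate for all genes was 13.8% above and 9.61% below, as given earlier.

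Folliculin and its partners act on RagC and RagD. Fnip2 had 746, 724, 776 and 769 CPM in cornea libraries, 51.8, 45.4, 16.9 and 52.0 CPM in retina, 40.2, 32.2, 60.0 and 61.0 CPM in brain and 21.1, 38.2, 28.5 and 38.6 CPM in monocytes. Fnip1 had 484, 506, 569.9 and 452 CPM in cornea libraries, 76.8, 65.1, 38.9 and 101 CPM in retina, 75.7, 86.8, 80.9 and 71.7 CPM in brain and 51.0, 39.7, 44.3 and 70.2 CPM in monocytes. Both were far above every other library in the cornea, by 18.2-fold over retina for Fnip2 and 7.14-fold for Fnip1. Sesn1, a sestrin that restrains mTORC1, ran the other way, with 14.1, 12.8, 20.9 and 13.5 CPM in cornea libraries, 173, 177, 172 and 195 CPM in retina, 245, 274, 271 and 255 CPM in brain and 43.8, 45.5, 46.9 and 38.8 CPM in monocytes. It was higher than in monocytes by 2.04 ± 0.14 on the log2 scale in retinal microglia (adjusted p = 2.17e-09) and by 2.58 ± 0.14 in brain microglia (adjusted p = 1.07e-10). Rhebl1, a relative of the mTORC1 activator Rheb, averaged 0.41 CPM in the cornea and 2.21 to 3.45 CPM in the other populations. Rptor, the scaffold by which mTORC1 is recruited, was higher than in monocytes by 2.25 ± 0.16 in retina (adjusted p = 3.03e-09) and 2.73 ± 0.16 in brain (adjusted p = 2.6e-10).

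Among the MiT/TFE factors, Tfec had 64.2, 66.5, 50.0 and 51.1 CPM in cornea libraries, 0.552, 1.12, 0 and 0.121 CPM in retina, 0, 0, 0.992 and 1.45 CPM in brain and 20.9, 20.0, 23.6 and 25.0 CPM in monocytes. It was lower than in monocytes in both microglia, at -5.64 ± 0.71 on the log2 scale in retina (adjusted p = 3.32e-06) and -5.10 ± 0.71 in brain (adjusted p = 9.22e-06). Mitf averaged 116 ± 30.0 CPM in the cornea, 30.2 ± 2.55 in retina, 25.9 ± 7.13 in brain and 16.4 ± 4.13 in monocytes. Tfeb and Tfe3, the factors best known for lysosomal genes, did not stand out in the cornea: Tfeb averaged 42.2 CPM in the cornea, 33.4 in retina, 39.9 in brain and 59.7 in monocytes, and Tfe3 averaged 138 CPM in the cornea, 144 in retina, 164 in brain and 78.9 in monocytes.

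Gla, the enzyme that is missing in Fabry disease in humans, had 565, 835, 907 and 1011 CPM in cornea libraries, 10.0, 8.69, 6.68 and 6.08 CPM in retina, 3.43, 3.35, 2.48 and 9.07 CPM in brain and 16.1, 10.7, 15.1 and 19.7 CPM in monocytes, with cornea ratios of 105 over retina, 181 over brain and 53.9 over monocytes. Acp5, an acid phosphatase used as an osteoclast marker, averaged 145 ± 38.4 CPM in the cornea, 0.561 ± 0.485 in retina and 9.08 ± 4.79 in monocytes, with 3 reads in all of brain. Slc15a3, a lysosomal peptide transporter, had 911, 850.0, 972 and 806 CPM in cornea libraries and averaged 87.6 ± 22.2 CPM in retina, 84.0 ± 19.0 in brain and 32.0 ± 1.05 in monocytes. Cd63, a tetraspanin of late endosomes, averaged 502 ± 85.0 CPM in the cornea, 94.1 ± 22.2 in retina, 63.2 ± 10.5 in brain and 2.21 ± 2.10 in monocytes, and the retinal and brain increases over monocytes were 5.27 ± 0.41 (adjusted p = 9.8e-09) and 4.70 ± 0.41 (adjusted p = 2.84e-08). Smpd1, acid sphingomyelinase, was lower in the cornea, at 12.1 CPM against 76.0 in retina, 99.8 in brain and 37.1 in monocytes.

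Among the 30 hydrolases, 1 was called higher and 4 lower in retinal than in brain microglia. Against monocytes, 19 were higher and 7 lower in retinal microglia, and 19 higher and 5 lower in brain microglia, with all-gene rates of 32.2% and 27.1% for retina and 28.5% and 27.4% for brain. Other lysosomal membrane genes gave 16 higher and 3 lower of 24 in retina, and 17 higher and 2 lower in brain. Increases of at least 4-fold in both microglia were called for genes that included Pla2g15, Naglu, Acp2, Arsb, Laptm4b and Lrrc8a, and in brain also for Gaa and Tpp1. Laptm4b had the highest of the first 6 in retina, at 4.25 ± 0.21 (adjusted p = 2.96e-11). Ncoa7, which binds the pump, was lower than in monocytes, at -2.64 ± 0.34 on the log2 scale in retina (adjusted p = 5.16e-06) and -3.08 ± 0.36 in brain (adjusted p = 1.15e-06), and its cornea mean of 32.0 CPM was near the monocyte mean of 46.8 CPM.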

How the data were processed

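Gene-level read counts of 16 bulk RNA libraries were deposited by the authors as 1 table with a gene length column, raw and whole-numbered. Per the submitters' processing notes, the tools were CASAVA 1.8.2, Subread, featureCounts and limma and the build GRCm38.p4; versions other than CASAVA's, the library kit and the strand setting are not stated, since the extraction text describes other tissue.

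Counts of the 15754 genes that passed edgeR's filterByExpr (minimum count 10) were fitted over all 16 libraries with edgeR 4.0.16 in R 4.3.3 (TMM factors, quasi-likelihood test, Benjamini-Hochberg adjustment, threshold 0.05), population being the only term. Calls were made for the 3 contrasts without cornea; the 3 cornea contrasts are ratios of mean CPM with the overlap of libraries. The code was tested on simulated data. Means carry the SD of 4 libraries. Ratios to a population at 0 are bounds against 3 counts. Alternatives were RLE factors, total counts, no filter, DESeq2 1.42.0, limma-voom 3.58.1, lane as a term, the populations compared alone, omitted libraries, GENCODE gene lengths (chosen after seeing the data) and a replicate block. Of the 24 pairs of libraries within a population none agreed within sampling noise (chi-square per degree of freedom 11.29 to 95.5). Entries whose names were turned into dates held at most 0.2229% of a library's counts.

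The members and lists were chosen with earlier results of these data known. Values per library are given for Atp6v1h, for members at least 4-fold apart without overlap in a cornea contrast, and for members called with at least a 2-fold change and no overlap elsewhere; of the other lysosomal genes, those called with at least 4-fold, or 8-fold apart in a cornea contrast without overlap, are named. Further members and listed genes are given by mean, and some per library, beyond that rule. Some genes of the other lysosomal lists that met the rule are not reported here.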

Additional observations from a re-analysis of the deposited data

Results flagged for a closer look

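Of 129 groups of 4 libraries, 11 held a library whose gap to the nearest of the others exceeded Dixon's 95% critical value. The rate of 1 in 20 for that value holds for independent groups of continuous values. These groups share the same libraries, so the number flagged is not judged against that rate. Among the flagged groups, Mcoln3 in cornea and Atp6v0d2 in retina and in monocytes had reads in 1 library and 0 in the others. There the gap fills the whole range by construction. Mcoln2 in brain, with 2 reads in 1 library, has the same form and is not among the flagged groups. The rule for which groups were checked is not given here. Of the 11 flagged groups, retinal microglia gave 7. Retinal replicate 3 was high for Lamtor4, at 55.0 CPM against 35.3 to 38.2 in the other retinal libraries, and for Atp6v1f, at 70.5 against 44.5 to 47.2. Retinal replicate 4 was high for Lamtor3, at 35.1 CPM against 30.7 to 31.1, and for Atp6v1b2, at 265 against 239 to 243. Retinal replicate 1 was high for Atp6v1g2, at 5.68 CPM against 2.75 to 3.14, and for Atp6v0d2, at 1.10 against 0. Retinal replicate 2 was low for Atp6v0c, at 14.5 CPM against 15.9 to 16.2.

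In the other populations, Mcoln3 was at 1.96 CPM in cornea replicate 2 and at 0 in the other cornea libraries. Among monocytes, Atp6v0d2 was at 1.67 CPM in replicate 1 and 0 in the others, Rraga was low in replicate 2, at 53.4 CPM against 68.3 to 70.0, and Rragc was high in replicate 3, at 148 CPM against 118 to 122.

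Among matched entries under the minimum, which entered no comparison, Atp6v0a4 had 4 counts in retinal replicate 1, and Atp6v1c2 had 17 counts in retinal replicate 2, above the limit of 3 that a count of 0 allows.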

How the results depend on the processing

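Between retinal and brain microglia, the 2 members called higher became 4 with DESeq2, 1 with limma-voom, 1 with only these populations fitted, 0 with lane as a term and 0 without the 2 retinal libraries that held most photoreceptor transcripts, a setting chosen after seeing the data; leaving out 1 library gave 1 to 3. The 1 called lower became 2 with DESeq2 and 0 with total counts, with no filter, with lane, with only these populations and without the photoreceptor-rich libraries; leaving out 1 library gave 0 to 2. The 7 members lower in retinal microglia than in monocytes became 6 to 11 when 1 library was left out, 11 without retinal replicate 3. The cause was not tested. The brain minus monocyte calls numbered 20. With a replicate block for the title ranges shared by 2 brain and 2 monocyte libraries, they again numbered 20, all shared. The block changed no call, but it can tell of pairing only in those libraries.

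With total counts, members at least 2-fold lower in the cornea without overlap became 5 against retina, 4 against brain and 5 against monocytes (3, 2 and 2 with TMM). Members at least 2-fold above all 3 populations without overlap became 13 (20). Atp6v1h stood at 3.32, 3.19 and 3.19 on the log2 scale (4.11, 3.87 and 3.86). Shares not divided by gene length were 48.8% in cornea and 15.8% in monocytes for Atp6v0a1, 51.3% in brain and 42.3% in monocytes for Atp6v0a2, 44.9% in cornea, 17.6% in brain and 41.9% in monocytes for Tcirg1, and 5.19% for Rragd in the cornea. Mcoln2 shares with GENCODE lengths were 90.0% in cornea and 3.61% in retina. Of the log2 fold changes of called members and of Atp6v1h, beside the 3 just given, 688 were the same, 75 lost the call and 0 reversed. The 688 include 17, 16 and 17 values of Atp6v1h in the cornea contrasts with retina, brain and marrow, which had no call to keep. The others kept direction and side of the threshold. Outside the calls, total counts also turned the direction of Atp6v1f, Atp6v1e1, Lamtor1, Atp6v0d1, Lamp3 and Atp6ap1 in retina against brain and of Lamp1 in retina against monocytes. Genes at a few reads in a population (Mcoln2, Mcoln3, Atp6v0d2, Rragb) are limited by depth.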
